A study of Mus musculus with 9 samples.

Results

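The genes described here mark the distal convoluted tubule and the connecting tubule, the short nephron segments between the thick ascending limb of Henle and the collecting duct. The 10 genes (Slc12a3, Pvalb, Trpm6, Wnk1, Klhl3, Calb1, Slc8a1, Trpv5, S100g and Emx1) were chosen by symbol as known markers or regulators of these segments, out of 22161 gene rows in the table. The choice was made with earlier results of these data known. All 10 were in the table, and all 10 passed the filter for the tests, a mean of 10 normalized counts or more, as did 15740 genes in total. RNA came from whole kidneys of 10-week-old (postnatal day 70) mice of the C57BL/6 strain. In the double knockout group (DKO, 3 mice) the genotype was Ift88fl/fl;Pkd2fl/fl;Pax8rtTA;TetO-cre, in the Pkd2 knockout group (KO, 3 mice) it was Pkd2fl/fl;Pax8rtTA;TetO-cre, and the third group (WT, 3 mice) is labelled only as wild type. Pkd2 encodes the cation channel polycystin-2, which is mutated in polycystic kidney disease, and Ift88 encodes a transport protein needed to build the primary cilium. Pax8-rtTA switches on the cre, under doxycycline, in cells that express Pax8, which in the kidney are tubule and collecting duct cells, so other kidney cells keep both genes. All mice, WT included, were given oral doxycycline (2 mg/ml), starting on postnatal day 28 and lasting 2 weeks. Each mouse is called by its group and replicate number, as in KO 1.

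The distal convoluted tubule takes up sodium chloride from the tubule fluid through the thiazide-sensitive cotransporter NCC, the product of Slc12a3. WNK kinases switch NCC on through the kinase SPAK, and a ubiquitin ligase built from Klhl3 and Cul3 removes the WNK kinases. Magnesium enters the same cells through the channel Trpm6. In the late distal convoluted tubule and the connecting tubule, calcium enters through the channel Trpv5, is carried across the cell by the calcium-binding proteins calbindin-D28k (Calb1) and calbindin-D9k (S100g), and leaves towards the blood through the sodium-calcium exchanger Slc8a1. Parvalbumin (Pvalb) is a calcium-binding protein of the early distal convoluted tubule in mice, and Emx1 is a homeobox transcription factor.

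Promoter sequence is shown for Slc12a3, Trpv5, S100g and Slc8a1, as examples from the sodium and calcium routes. A link between these sequences and the levels of the genes was not tested. RefSeq promoters on GRCm38.p6 were matched by symbol for 9 of the 10 members, and Calb1 had no entry. The 250 bases before the start site are given 5′ to 3′ on the gene's own strand. Capitals mark any match, on either strand, to 3 motifs. TATAAA is the core of a TATA box, TAATTA is a core bound by homeodomain proteins and AGGTCA is a half-site of nuclear receptors.
Slc12a3, chr8:94328958-94329207, plus strand: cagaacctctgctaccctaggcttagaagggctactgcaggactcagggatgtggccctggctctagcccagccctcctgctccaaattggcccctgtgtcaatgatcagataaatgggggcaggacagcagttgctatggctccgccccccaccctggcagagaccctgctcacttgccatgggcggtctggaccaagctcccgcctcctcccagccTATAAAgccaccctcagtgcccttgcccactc
Trpv5, chr6:41680724-41680973, minus strand: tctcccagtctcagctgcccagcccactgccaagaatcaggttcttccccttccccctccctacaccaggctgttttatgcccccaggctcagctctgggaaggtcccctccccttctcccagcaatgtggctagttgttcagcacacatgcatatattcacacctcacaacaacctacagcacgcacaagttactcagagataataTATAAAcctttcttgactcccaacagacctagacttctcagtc
S100g, chrX:162964600-162964849, minus strand: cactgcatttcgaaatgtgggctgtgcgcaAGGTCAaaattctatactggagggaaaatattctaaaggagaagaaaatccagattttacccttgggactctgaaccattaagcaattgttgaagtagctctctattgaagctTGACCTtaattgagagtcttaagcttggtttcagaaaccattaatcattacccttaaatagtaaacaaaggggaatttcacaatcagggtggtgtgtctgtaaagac
Slc8a1, chr17:81738388-81738637, minus strand: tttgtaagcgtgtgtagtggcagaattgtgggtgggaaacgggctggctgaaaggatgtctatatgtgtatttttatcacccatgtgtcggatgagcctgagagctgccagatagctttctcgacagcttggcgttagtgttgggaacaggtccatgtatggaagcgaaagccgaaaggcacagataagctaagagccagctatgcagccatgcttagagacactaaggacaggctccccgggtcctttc
The Slc12a3 and Trpv5 windows each held 1 TATAAA, and the S100g window held 2 AGGTCA half-sites on opposite strands. Over all 32851 promoter windows of this length, 12.4% held TATAAA, 4.84% held TAATTA and 14.02% held AGGTCA. None of the 3 motifs was in the Slc8a1 window, nor in those of Pvalb, Trpm6, Wnk1, Klhl3 and Emx1. Slc8a1 has several tissue-specific start sites, and which of them these kidneys used was not tested.

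The 9 libraries had normalized totals between 40454151 and 42874467. Pkd2 averaged 4687 normalized counts in DKO, 5118 in KO and 14095 in WT kidneys, and Ift88 averaged 752, 1140.2 and 1085, in the order the labels give. All 10 members were detected in every kidney. Pvalb is also a gene of fast muscle fibres, and the summed level of the 7 skeletal muscle markers in the table lay between 38.3 and 81.4 normalized counts in DKO, 55.1 and 68.5 in KO and 62.0 and 80.3 in WT kidneys, with Acta1, Ckm and Myh1 at or near 0. Slc8a1 is also a gene of heart and smooth muscle, whose 7 markers summed to 2605 to 3193 in DKO, 2363 to 4194 in KO and 3014 to 4869 in WT kidneys. The part of those cells in the Slc8a1 values was not tested. In whole-kidney RNA, fewer cells of a segment and less RNA per cell cannot be told apart.

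Levels of different members were compared only per kilobase of the longest protein-coding transcript in GENCODE M21, whose gene models can differ from those the authors counted on. In WT kidneys S100g had the highest level, at 26373 ± 5276 normalized counts per kilobase (SD, n = 3), followed by Slc12a3 at 7585 ± 1260 (SD). Calb1 had 4607 ± 737 and Wnk1 2366 ± 200.1 per kilobase. Pvalb (1185 ± 725) and Emx1 (1014 ± 36.2) did not differ beyond their spread. The neighbours Trpv5 (213 ± 31.1), Trpm6 (171 ± 31.7), Klhl3 (152 ± 15.3) and Slc8a1 (129.9 ± 20.1) each overlapped the next in their ranges. The Slc8a1 transcript used for this is 18.5 kilobases long, and where shorter forms dominate its level per kilobase would be higher.

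**Figure D1:**
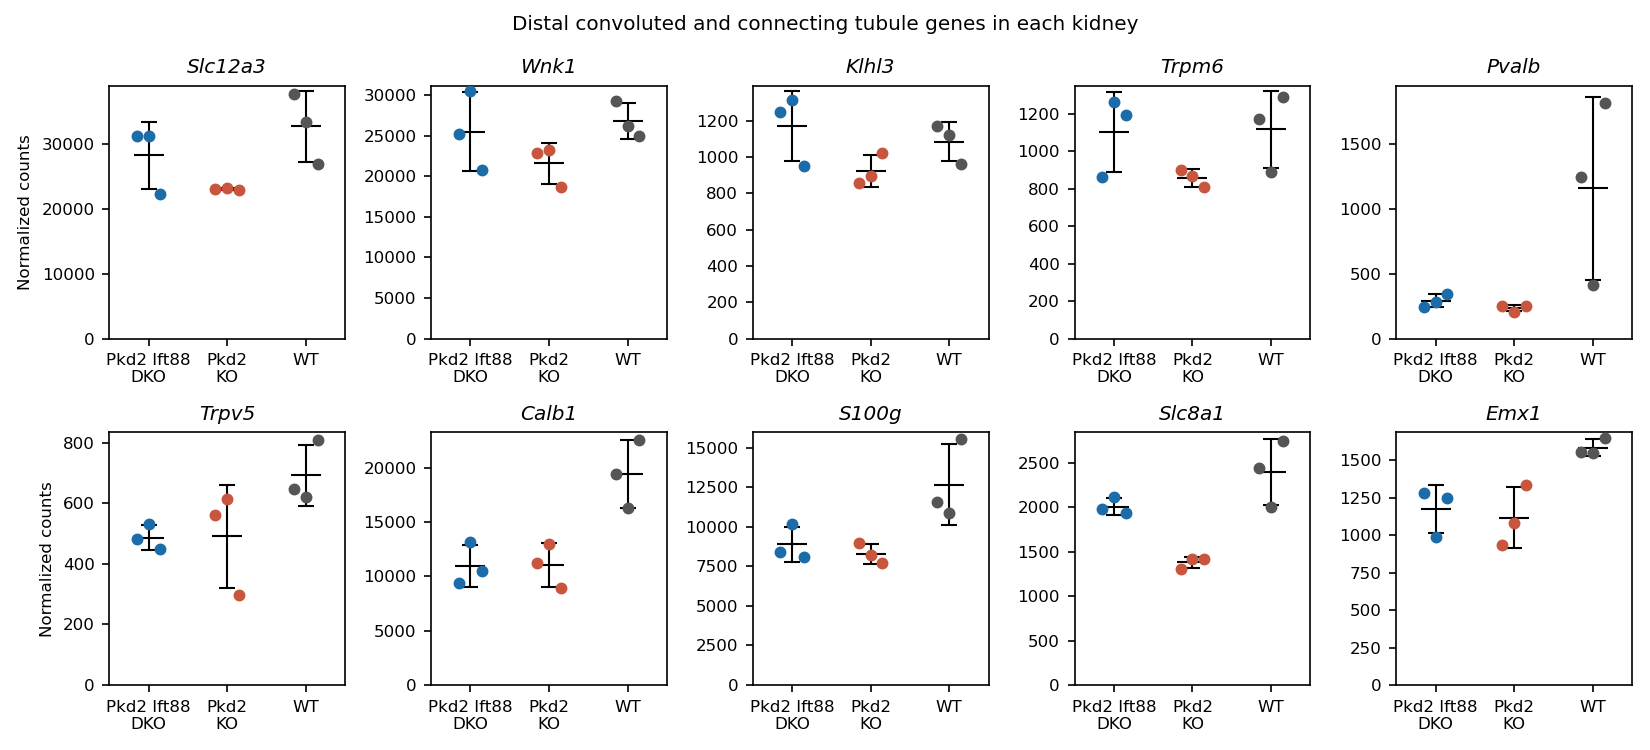
Normalized counts (vertical axes, each from 0) of the 10 genes in each kidney, with DKO, KO and WT mice from left to right. Points are mice, and black bars give the mean and the SD of 3 mice. Calb1, S100g, Emx1, Trpv5 and Pvalb lie lower in all 6 mutant kidneys than in all 3 WT kidneys, and Slc12a3 is nearly the same in the 3 KO kidneys.

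The first comparison asked how the segment's genes stood in KO kidneys, in which Pkd2 alone was deleted, against WT kidneys. All 10 members had lower means in KO kidneys, with a median log2 fold change of -0.54, where 49.2% of all tested genes had a negative value and their median was 0.00. Of the 10 members, 2 fell past the threshold, a Benjamini-Hochberg adjusted p below 0.05 in limma over all 15740 genes, and none rose. The same threshold called 1.25% of all tested genes lower, 1.14% higher and 2.4% in either direction. The values of KO and WT mice did not overlap for 8 members, all of them lower in KO, against 12.8% of tested genes that were lower without overlap. At an unadjusted p under 0.05, 7 members were lower, against 8.67% of tested genes. Because the members were chosen with earlier results of these data known, these shares are a background and not a test of the list.

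Both genes that fell act in calcium transport. Slc8a1, the exchanger that returns calcium to the blood, had 1309, 1420.4 and 1415 normalized counts in KO kidneys, against 2441, 2009 and 2746 in WT kidneys. All KO values lay below all WT values, and the KO kidneys lay close together. The log2 fold change was -0.78 ± 0.11 (SE, adjusted p = 0.0101, limma, 95% interval -1.03 to -0.54), so that the KO mean was 57.6% of the WT mean. The call was lost without KO 1 (adjusted p = 0.0508, limma) and held without any other single library, and over all alternatives the adjusted p ranged from 1.54e-08 to 0.191. Exons of Slc8a1 overlap an antisense gene over 296 bases and a gene on the opposite strand over 8 bases, and whether the counting used strand is not given in the sources used here.

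Calb1, which encodes the cytosolic calcium carrier calbindin-D28k, had 11194, 12991 and 8969.9 normalized counts in KO kidneys, against 19444, 16338 and 22565 in WT kidneys. The groups did not overlap, and KO 3 was the lowest. The log2 fold change was -0.82 ± 0.17 (SE, adjusted p = 0.0448, limma, 95% interval -1.21 to -0.43), with a KO mean at 56.8% of WT. This call was less stable than that of Slc8a1: it held without DKO 2 and was lost without any other single library (adjusted p from 0.0551 to 0.135, limma), and over all alternatives the adjusted p ranged from 0.000328 to 0.335.

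The other members of the calcium route had lower means and did not pass. S100g, the intracellular carrier calbindin-D9k, had 8985, 8180.3 and 7733 normalized counts in KO kidneys, against 11571, 10853 and 15554 in WT kidneys. The groups did not overlap, with WT 3 well above the other WT kidneys, and the log2 fold change was -0.59 ± 0.14 (SE, adjusted p = 0.0658, limma). Trpv5, the entry channel, had 561, 614 and 297 in KO kidneys, against 647, 622 and 808 in WT kidneys. KO 2 lay just under the lowest WT value and KO 3 far under it, and the log2 fold change was -0.55 ± 0.25 (SE, adjusted p = 0.277, limma), or -0.23 without KO 3. KO 3 was the lowest KO kidney for Calb1, S100g and Trpv5, and also for Slc12a3, Trpm6 and Wnk1. For Emx1, Klhl3 and, by little, Pvalb it was the highest. KO 3 also stood apart in markers of blood and fat. Its 5 erythroid markers summed to 6174 normalized counts, against 87.2 to 1012 in the other kidneys, and its 4 adipose markers to 1664, against 182 to 815. Without KO 3 the log2 fold changes were -0.68 for Calb1 and -0.54 for S100g, and the part of these cells in the values was not tested.

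Pvalb, the calcium buffer of the early distal convoluted tubule, had the lowest fold change of the members and missed the threshold. It had 249.3, 208 and 251 normalized counts in KO kidneys, against 1244, 410.2 and 1818 in WT kidneys. The KO values were close together and all below WT, while the WT values spread widely and WT 2 was far under the other WT kidneys. The log2 fold change was -2.05 ± 0.45 (SE, adjusted p = 0.0507, limma, 95% interval -3.05 to -1.04), and the KO mean was 20.4% of WT. Without WT 2 the log2 fold change was -2.67 and passed (adjusted p = 0.00275, limma). It also passed with edgeR on reads recovered from all 9 libraries (adjusted p = 0.0337), and over all alternatives the adjusted p ranged from 1.56e-06 to 0.299.

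No member of the sodium chloride route passed. Slc12a3, the NCC cotransporter, had 23083, 23194 and 22950.2 normalized counts in KO kidneys, against 37754, 33364 and 26959 in WT kidneys. The KO kidneys were almost equal and lay below every WT kidney, and the log2 fold change of -0.49 ± 0.15 did not pass (SE, adjusted p = 0.135, limma, 95% interval -0.83 to -0.15). Wnk1, a kinase gene that in the distal convoluted tubule mainly makes a short form without the kinase domain, had 22845, 23276 and 18688 in KO kidneys, against 29332, 26155 and 24943 in WT kidneys. Its groups did not overlap either, and its log2 fold change was -0.32 ± 0.14 (SE, adjusted p = 0.292, limma). Counts per gene do not separate the short form from the long one. Klhl3, the substrate adaptor of the ligase that removes WNK kinases, had 855 to 1021 normalized counts in KO and 962 to 1172 in WT kidneys, which overlapped (log2 fold change -0.23, 95% interval -0.54 to 0.08).

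Trpm6, the magnesium channel, had 900, 869 and 807 normalized counts in KO kidneys, against 1170.1, 888 and 1289.9 in WT kidneys. WT 2 lay among the KO values, and the log2 fold change of -0.36 ± 0.17 did not pass (SE, adjusted p = 0.303, limma). Emx1, the homeobox gene, had 933, 1081 and 1335 in KO kidneys, against 1556, 1544 and 1647 in WT kidneys. No KO kidney reached the lowest WT value, KO 3 came nearest, and the log2 fold change was -0.52 ± 0.14 (SE, adjusted p = 0.0976, limma). Without KO 3 the fall of Emx1 passed (log2 fold change -0.65, adjusted p = 0.0414, limma), and over all alternatives its adjusted p ranged from 0.00552 to 0.476.

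**Figure D2:**
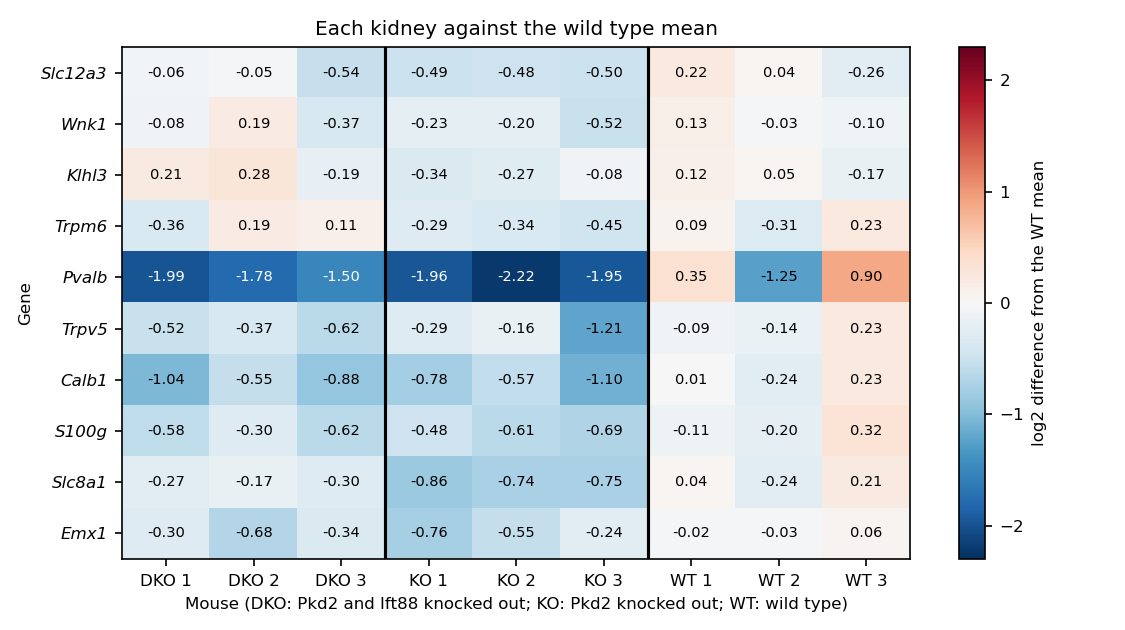
Difference of each kidney from the mean of the WT kidneys, on the log2(normalized count + 1) scale, for the 10 genes (rows) in the 9 mice (columns, DKO, KO and WT from left to right). All 10 genes are below 0 in each KO kidney, and DKO 3 is lower than DKO 1 and DKO 2 for Slc12a3, Wnk1 and Klhl3.

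Markers of other kidney cells were set beside the members in the same comparison. The thick ascending limb lies just upstream, and 4 of its 8 markers fell in KO kidneys (7 were lower at the unadjusted threshold). The list's median log2 fold change was -0.67, and its summed level was 128777 to 164261 in KO and 264558 to 277205 in WT kidneys. Of 8 intercalated cell markers 1 fell (5 were lower at the unadjusted threshold), and the sums were 13141 to 13250.2 in KO and 16260.2 to 17279.7 in WT kidneys. No principal cell marker of the 7 tested passed with limma (1 was lower at the unadjusted threshold), and the sums over all 8 markers were 23335 to 27818 in KO and 29942 to 34466 in WT kidneys. Of 8 proximal tubule markers 1 rose, while 2 were lower at the unadjusted threshold. Their sums were 564819 to 566042 in KO and 517618 to 558757 in WT kidneys. No podocyte marker of 5 passed with limma (1 was lower at the unadjusted threshold), all 5 had lower means, and the sums were 13084 to 13911 in KO and 15332 to 15699.9 in WT kidneys, without overlap. The 10 members summed to 63469 to 72729 in KO and 93305 to 106331 in WT kidneys. All 5 proliferation markers rose, with sums of 2120.3 to 2579 in KO and 358 to 449.9 in WT kidneys. No macrophage marker of 7 passed with limma (4 were higher at the unadjusted threshold), and the sums were 5702 to 7675 in KO and 4701 to 5512 in WT kidneys. No fibroblast marker of 7 passed either (3 were higher at the unadjusted threshold, and 1 had a lower mean). The fibroblast sums, 9637 to 15333 in KO and 6988 to 9809 in WT kidneys, overlapped. The part of these lists in the members' values was not tested.

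The related genes that control or complete these transport routes were described from 5 lists. The first list held 14 genes that regulate NCC through WNK and SPAK or set the membrane voltage on which it depends. In KO kidneys 2 of them fell, 0 rose and 12 missed the threshold, and their median log2 fold change was -0.08. Stk39, which encodes SPAK, the kinase that phosphorylates NCC, had 1179, 1399.8 and 1261 normalized counts in KO kidneys, against 1777, 1725 and 1625 in WT kidneys. All KO values lay below WT, and the log2 fold change was -0.42 ± 0.08 (SE, adjusted p = 0.0368, limma). The call held without DKO 3 or WT 3 and was lost without any other single library, with an adjusted p of up to 0.139. Kcnj16, a potassium channel subunit and the most abundant uncalled gene of this list, had a log2 fold change of 0.03 ± 0.07 (SE). Most abundant, here and for the lists below, means the highest normalized counts, not divided by gene length.

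Among 11 genes of magnesium handling, 1 fell, 0 rose and 10 missed the threshold, and the median log2 fold change was -0.09. The gene that fell was Egf, whose product raises Trpm6 activity and which the thick ascending limb also expresses, with 50899, 47229 and 45149 normalized counts in KO kidneys, against 105804, 103804 and 97547 in WT kidneys. Its groups were far apart, and the difference of -1.10 ± 0.13 on the log2 scale (SE, adjusted p = 0.00518, limma) held without any 1 library. Fxyd2, a subunit of the sodium-potassium pump and the most abundant uncalled gene, had a log2 fold change of -0.30 ± 0.09 (SE). Among 9 genes of calcium handling, 1 fell, 0 rose and 8 missed the threshold, and the median was -0.18. Casr, the calcium-sensing receptor, averaged 2121 in KO and 3319.8 in WT kidneys, and its difference of -0.65 ± 0.08 on the log2 scale (SE, adjusted p = 0.00525, limma) also held without any 1 library. Kl, which encodes klotho and was the most abundant uncalled gene, had a log2 fold change of -0.18 ± 0.08 (SE).

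No gene of the 8 for aldosterone-sensitive sodium and potassium transport passed with limma, while 3 were lower at the unadjusted threshold and all 8 had lower means (median log2 fold change -0.41). The most abundant, the kallikrein gene Klk1, was -0.32 ± 0.27 (SE) on the log2 scale, and this turned to 0.00571 with array quality weights and 0.052 with mice of the same name prefix only. Klk1 has close paralogs, so its counts are uncertain. No gene of the 7 distal nephron transcription factors passed either, the median was -0.31 and 3 were lower at the unadjusted threshold. Esrrg, the most abundant of them, had a log2 fold change of 0.00 ± 0.13 (SE). These medians stand beside a median of 0.00 over all tested genes.

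**Figure D3:**
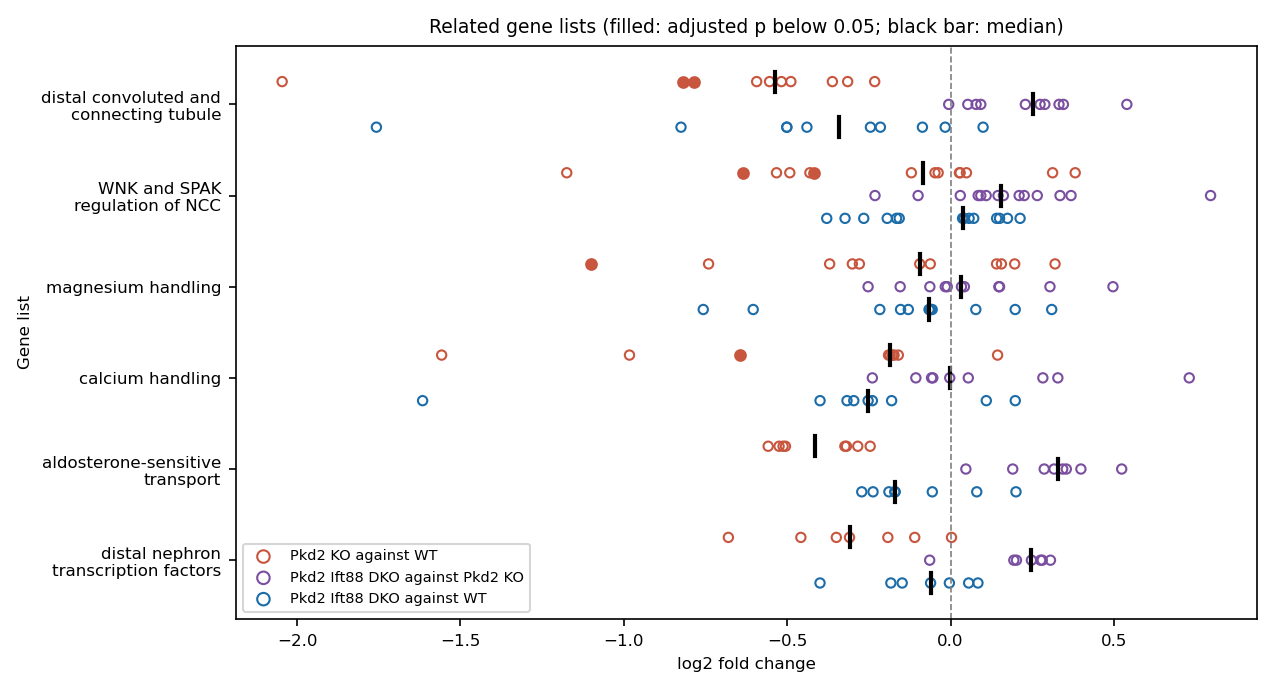
Log2 fold changes (horizontal axis) of the 10 genes and of 5 related lists (rows) in the 3 comparisons, shown by colour. Each point is a gene, filled points passed an adjusted p below 0.05 in limma and black bars are medians. The filled points are all negative and all in KO against WT kidneys.

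The second comparison asked how kidneys that lost Ift88 together with Pkd2 differed from kidneys that lost Pkd2 alone. It uses the same KO mice as the first, so the values are given side by side and not correlated. No member passed with limma, where 0.394% of all tested genes did. At an unadjusted p under 0.05, 2 members were higher (Slc8a1 and Klhl3), against 4.19% of tested genes. edgeR on all 9 libraries also called 0 members, and DESeq2 called 1, Slc8a1. Over all alternatives 8 to 614 of all tested genes passed, and the share that DESeq2 called is not given here. The median log2 fold change of the members was 0.25, beside 0.00 over all tested genes, and 1 of 10 values was negative, against 48.7% of tested genes.

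Slc8a1 was the 1 member without overlap, against 7.4% of tested genes that were higher without overlap. It had 1976, 2113 and 1936 normalized counts in DKO kidneys, against 1309, 1420.4 and 1415 in KO kidneys. Every DKO kidney lay above every KO kidney, and the log2 fold change was 0.54 ± 0.11 (SE, adjusted p = 0.0828, limma, 95% interval 0.30 to 0.78). It passed without WT 3, when the spread was estimated from the 8 other mice (adjusted p = 0.0499, limma), and over all alternatives the adjusted p ranged from 0.00105 to 0.454.

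Klhl3 had 1251, 1312 and 949 normalized counts in DKO kidneys, against 855, 894 and 1021 in KO kidneys, and its log2 fold change was 0.33 ± 0.14 (SE, adjusted p = 0.420, limma, 95% interval 0.02 to 0.64). Slc12a3 had 31136, 31263 and 22312 in DKO kidneys, against 23083, 23194 and 22950.2 in KO kidneys. DKO 1 and DKO 2 lay well above KO while DKO 3 lay below it, and the log2 fold change was 0.27 ± 0.15 (SE, adjusted p = 0.606, limma, 95% interval -0.07 to 0.62). Wnk1 had 25241, 30527 and 20755 normalized counts in DKO and 22845, 23276 and 18688 in KO kidneys, with replicate 3 the lowest of each group. In DKO 3 the summed markers of principal cells (21744) and intercalated cells (14359) were also lower than in DKO 1 and DKO 2 (31613 and 34132 for principal cells, 19907 and 20157 for intercalated cells), and what sets DKO 3 apart was not tested. Trpm6 had 861, 1260.5 and 1193 in DKO kidneys, against 900, 869 and 807 in KO kidneys. Here DKO 1 was the low mouse, and the log2 fold change of 0.35 ± 0.17 did not pass (SE, adjusted p = 0.536, limma).

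The values of Calb1, S100g, Trpv5, Pvalb and Emx1 overlapped between the mutant groups and did not pass. Calb1 had 9382, 13137 and 10457 normalized counts in DKO kidneys, against 11194, 12991 and 8969.9 in KO kidneys. The ranges lay on top of each other, and the log2 fold change was -0.01 ± 0.17 (SE, adjusted p = 0.996, limma), with a 95% interval of -0.40 to 0.38. S100g averaged 8875 ± 1102 in DKO and 8299.5 ± 635 in KO kidneys (SD), a log2 difference of 0.09 with an interval of -0.22 to 0.41. Trpv5 averaged 487 ± 42.5 in DKO and 491 ± 169.6 in KO kidneys (SD), a log2 difference of 0.05 with an interval of -0.50 to 0.61. Pvalb averaged 291 ± 49.9 in DKO and 236 ± 24.3 in KO kidneys (SD), a log2 difference of 0.29 with an interval of -0.71 to 1.29. Emx1 averaged 1173 ± 161 in DKO and 1116 ± 204 in KO kidneys (SD), a log2 difference of 0.08 with an interval of -0.24 to 0.39. With 3 mice in a group, the values do not exclude differences within these intervals.

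**Figure D4:**
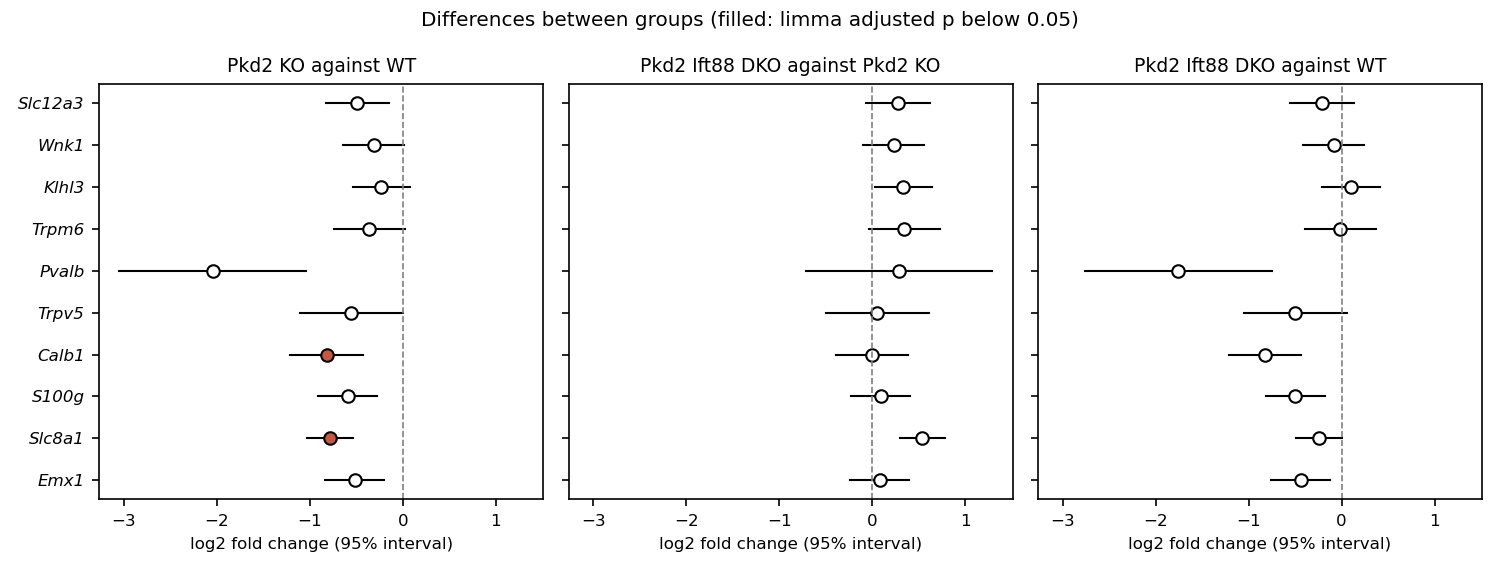
Log2 fold changes of the 10 genes in the 3 comparisons (panels), with 95% intervals from limma as lines. Filled points, Calb1 and Slc8a1 in KO against WT kidneys, have an adjusted p below 0.05. The interval of Slc8a1 in DKO against KO kidneys lies above 0.

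The third comparison set DKO against WT kidneys and shares its mice with the other two. No member passed with limma, where 0.229% of all tested genes did. At an unadjusted p under 0.05, 5 members were lower (Pvalb, Calb1, Slc8a1, S100g and Emx1), against 5.81% of tested genes. edgeR on all 9 libraries called 0 members and DESeq2 called 3, all lower (Calb1, Pvalb and S100g). Over all alternatives 10 to 387 of all tested genes passed, again without a separate share for DESeq2. The median log2 fold change of the members was -0.34, beside 0.00 over all tested genes. The DKO and WT values did not overlap for 5 members, all lower in DKO (Pvalb, Calb1, Trpv5, S100g and Emx1), against 9.24% of tested genes that were lower without overlap.

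Calb1 was 56.5% of its WT mean in DKO kidneys, with 9382, 13137 and 10457 normalized counts in DKO kidneys, against 19444, 16338 and 22565 in WT kidneys. No DKO kidney reached a WT kidney, and the difference of -0.83 ± 0.17 on the log2 scale (SE, adjusted p = 0.128, limma, 95% interval -1.21 to -0.44) was close in size to the called one in KO kidneys. The same adjusted threshold called fewer genes overall in this comparison, 36 against 377. Pvalb had 245, 283 and 344 in DKO kidneys, against 1244, 410.2 and 1818 in WT kidneys. Its log2 fold change of -1.76 ± 0.45 did not pass (SE, adjusted p = 0.183, limma), and without WT 2 it was -2.38 and passed (adjusted p = 0.00741, limma, with a range of 0.000127 to 0.524 over all alternatives). S100g had 8379, 10138 and 8108 in DKO kidneys, a log2 difference from WT of -0.50 ± 0.14 (SE, adjusted p = 0.225, limma). Trpv5 had 480.3, 532 and 448 and Emx1 had 1283, 989 and 1249 in DKO kidneys, with log2 fold changes of -0.50 and -0.44 from WT.

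The remaining members overlapped between DKO and WT kidneys. Slc8a1 averaged 2008 ± 93.0 normalized counts in DKO and 2399 ± 370.4 in WT kidneys (SD), a log2 difference of -0.25 ± 0.11 (SE, adjusted p = 0.423, limma). It was -0.14 without WT 3 and -0.37 without WT 2. Slc12a3 averaged 28237 ± 5131 in DKO and 32692 ± 5429 in WT kidneys (SD), and its log2 difference of -0.21 (95% interval -0.56 to 0.13) was -0.05 without DKO 3, -0.10 without WT 1 and -0.35 without WT 3. Trpm6, Wnk1 and Klhl3 had log2 differences of -0.02, -0.09 and 0.10. The difference of fold changes between members was not tested. No gene of the 5 related lists passed with limma in DKO against KO or against WT kidneys. At an unadjusted p under 0.05, each of the lists had 1 to 4 genes higher and 0 lower in DKO than in KO kidneys. Against WT kidneys, the same threshold left 0 to 4 genes of a list lower and 0 to 1 higher in DKO.

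Genes with the profile over the 9 mice most like that of 3 members were sought by the root mean square difference of log2 values centred on each gene's mean. The search covered 12108 genes with a mean of at least 50 normalized counts, without clone names and pseudogenes. The values were not scaled, so the size of a gene's variation counts as well as its shape. A gene that did not vary would score the member's own value about its mean. For Slc12a3 these were Ppp1r9a (0.07), Slc4a8 (0.07), Wasf3 (0.09), Zc3h12b (0.09) and Tmem52b (0.09), where the profile of Slc12a3 itself varied by 0.27 about its mean. For Calb1 they were Kif26b (0.13), Umod (0.16), Gpr162 (0.16), Rplp0 (0.17) and Rps6ka6 (0.18), and its own value was 0.44. Umod encodes uromodulin, the main secreted protein of the thick ascending limb. Among the other members, S100g came 11th (0.19) and Trpv5 25th (0.23) in likeness to Calb1, Slc8a1 260th, Wnk1 876th, Trpm6 881st, Emx1 1024th, Slc12a3 1375th, Klhl3 6653rd and Pvalb 11395th. The genes most like Slc8a1 were Cml1 (0.12), Rhbg (0.13), Wfdc15b (0.13), Plxnb1 (0.14) and Casr (0.14), and its own value was 0.35. In likeness to Slc8a1, S100g came 158th, Trpm6 218th, Slc12a3 577th, Emx1 597th, Wnk1 793rd, Klhl3 1545th, Calb1 2041st, Trpv5 4313th and Pvalb 11679th. In likeness to Slc12a3, Wnk1 came 92nd, Klhl3 166th, Slc8a1 2808th, Emx1 4501st, S100g 4654th, Trpm6 6653rd, Trpv5 8838th, Calb1 9128th and Pvalb 11920th. Some members differed by more than the compared member's own value. These were Klhl3 and Pvalb for Calb1, Trpv5 and Pvalb for Slc8a1, and Emx1, S100g, Trpm6, Trpv5, Calb1 and Pvalb for Slc12a3. The 5 genes most like each member changed with the mice used: without any 1 mouse, 2 to 4 of the 5 remained for Slc12a3 and for Calb1, and 0 to 2 for Slc8a1.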

How the data were processed

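Poly(A) libraries of whole-kidney RNA from 9 mice, 3 in each of 3 groups, were used as a table of 22161 gene rows, of which 25 are named as dates. Per the labels and the submitters' processing notes, the authors aligned reads with STAR 2.5.0, counted them per gene with HTSeq 0.6.1 and normalized with DESeq2; the deposited values are treated here as a normalized signal, counts divided by a size factor for each library. The genome build, the annotation and the strand setting of the counting were not given in the sources used here. Reads recovered from these values totalled 37056843 to 47314829 per library, all values coming out whole within 0.05. In 2 libraries, KO 1 and WT 1, the size factor lies near 1. Among mid-sized values, of at least 100, 10.33% in KO 1 and 10.07% in WT 1 were whole as deposited, against 100% after division. These 2 libraries therefore test the recovery of reads as the other 7 do.

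Values were analysed as log2(value + 1) with limma 3.58.1 in R 4.3.3, with an intensity trend and 1 mean per group over all 9 libraries, for 15740 genes that averaged at least 10. Fold changes are on that scale, p-values are two-sided and were adjusted by Benjamini-Hochberg over those genes. In a test on simulated data for KO against WT, changes were planted in genes that averaged at least 50, 100 genes for each size. Of changes of 1 on the log2 scale 81% were recovered, and of changes of 2 98%. There were 8 false calls among the genes left unchanged, out of 15740 fitted. Smaller changes, such as those of all members but Pvalb in KO against WT kidneys, were not simulated. Alternatives were edgeR 4.0.16 and DESeq2 1.42.0 on recovered reads, other pseudocounts, filters, scalings and weights, a replicate block, and each library left out. edgeR on 7 libraries, without WT 1 and KO 1, was added after seeing the data, and it had fewer KO and WT mice. The upper ends of the adjusted p ranges given over all alternatives came from this run, so loss of mice and method are not separated there. The design states biological replicates. WT 3 and KO 3 carry another mouse-name prefix than the rest of their group, and no prefix occurs in more than 1 group. The name of DKO 3 has the letters of its group's prefix but is written with a hyphen. DKO 3 was kept in the run with mice of the same name prefix only, which left out WT 3 and KO 3. The members and lists were chosen with earlier results of these data known. The text names every member, the called genes and the most abundant uncalled gene of each related list, and the 5 genes most like 3 members. Of the called genes of the related lists, 1 is not reported here by name.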

Additional observations from a re-analysis of the deposited data

How the results depend on the processing

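Members passing in KO against WT kidneys numbered 2, and 0 to 2 when any single library was left out. They numbered 1 without an intensity trend, 1 with only the 2 groups compared, 1 with mice of the same name prefix only, 0 with edgeR on 7 libraries, 7 with array quality weights and 6 with DESeq2. With a replicate block the count was 1, and same-numbered mice did not deviate together (correlations from -0.14 to 0.21 over 9 pairs, 2 of them over 0.1). For DKO against KO kidneys the count of 0 became 1 with weights, 1 with the same prefix, 1 with DESeq2 and 0 to 1 with a library left out. For DKO against WT kidneys it became 1 with weights, 3 with DESeq2 and 0 to 1 with a library left out. All genes called ranged from 11 to 3222 (377 as reported), 8 to 614 (62) and 10 to 387 (36) in the 3 comparisons. The member counts of different settings therefore stand beside different shares of all genes, which are not given here setting by setting. The causes were not tested.

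Some differences that did not pass turned sign. For DKO against KO kidneys with a library left out, Calb1 ranged from -0.15 to 0.12, Trpv5 from -0.27 to 0.25, S100g from -0.0071 to 0.15 and Emx1 from -0.044 to 0.22. Trpv5 was -0.15 with weights, -0.27 with the same prefix, -0.016 with edgeR on 9 libraries and -0.0143 with DESeq2, and Emx1 was -0.045 with edgeR on 7. For DKO against WT kidneys, Trpm6 was 0.030 with weights, 0.10 with the same prefix, 0.025 with edgeR on 7 and -0.17 to 0.15 with a library left out. Wnk1 was 0.0011 with edgeR on 7 and -0.22 to 0.054 with a library left out. For KO against WT kidneys, Klk1 was 0.00571 with weights and 0.052 with the same prefix. Esrrg was -0.0034 with TMM, -0.086 with weights, -0.12 with the same prefix, -0.015 with edgeR on 9 libraries, -0.00756 with DESeq2 and -0.12 to 0.085 with a library left out. Among the 5 genes most like a member, 2 to 4 were shared with a library left out for Slc12a3 and for Calb1, and 0 to 2 for Slc8a1.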

Other observations

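Sgk1, the aldosterone-induced kinase gene of the WNK and SPAK list, was singled out after its values were seen. It had 4229.9, 14089 and 3066 normalized counts in DKO kidneys, 3293, 3705 and 2862 in KO kidneys, and 5929, 7989 and 8486 in WT kidneys. DKO 2 lay above every other kidney, while the other two DKO kidneys lay below every WT kidney.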
